A study of Mus musculus with 24 samples.

Results

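The response of control embryoid bodies to 12 h of all-trans retinoic acid (ATRA) was read from 6 of the 24 arrays of the series, chosen by their titles. Of these, 3 arrays held siSCR embryoid bodies with ATRA and 3 held siSCR embryoid bodies with the vehicle DMSO. All 19938 genes that had a probe set naming 1 gene were tested, each through its brightest set over the 24 arrays. The cells were D3, an established mouse embryonic stem cell line, and both groups carried a scrambled sequence as the control of a Prmt1 knockdown. They were aggregated without the cytokine LIF into embryoid bodies, differentiating clusters of cells, and at day 4 were given ATRA at a final 5 micromol or DMSO for 12 h. The stem cells had been passaged without feeder cells on gelatin. The series also measured both lines undifferentiated and at day 4 untreated, and the knockdown line (siPRMT1) with ATRA and with DMSO. The labels call the arrays biological replicates but do not say whether they came from separate cultures, so p-values measure the spread between these samples. Neither the clones nor the batches of culture behind an array are given in the sources used here.

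Retinoic acid is made from retinol by dehydrogenases and broken down by the CYP26 enzymes. It binds nuclear receptors (RAR) that sit with RXR partners on pairs of short repeated DNA motifs, and the receptors switch from repression to activation when the ligand arrives. In embryos it patterns the hindbrain and trunk through the Hox clusters, opposes anterior genes such as Otx2, and induces its own breakdown. In embryonic stem cells it drives exit from pluripotency, and in germ cells it starts meiosis through Stra8.

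Every difference below is a log2 fold change, ATRA over DMSO, ± standard error (n = 3 arrays per group), and every level is a deposited log2 expression value. Genes were called from limma at an adjusted p under 0.05. In siSCR, 544 genes were called, 2.73% of those tested: 250 higher (1.25%) and 294 lower (1.47%). Each count of called list members below is to be read beside these shares. With each array centred on its median the split was 204 higher and 473 lower, so the balance of the directions depends on the scaling. At a change of at least 2-fold, 61 genes were called (0.306%), with 47 higher (0.236%) and 14 lower (0.0702%). The 3 ATRA arrays lay wholly above the 3 DMSO arrays for 2613 genes (13.1%) and wholly below them for 2807 (14.1%), and all 544 called genes were among these. The median standard error over genes was 0.114, so small changes could be missed. In simulated data of the same spread, 42% of 1.5-fold and 76.6% of 2-fold changes were recovered. A gene that was not called is therefore not shown to be unchanged.

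Replicates correlated at 0.993 to 0.994 with DMSO and at 0.99 to 0.992 with ATRA over genes, below the 0.997 to 0.999 of siPRMT1. The SD over genes was also narrower, 1.98 to 2.08 in these 6 arrays against 2.16 to 2.27 in the siPRMT1 arrays of the same treatments. The comparison of ATRA with DMSO in siSCR lies within these 6 arrays, but any comparison with siPRMT1 crosses this gap. The untreated siSCR arrays did not share it, with an SD of 2.16 to 2.25 and replicate correlations of 0.996 to 0.998, so the gap belongs to the 6 arrays and not to all siSCR arrays. Among the DMSO and ATRA arrays it cannot be told apart from the line. The siSCR groups also differed from each other, with an SD of 2.04 to 2.08 with DMSO and 1.98 to 1.99 with ATRA. Their array medians were 7.57 to 7.61 and 7.62 to 7.67, so the siSCR comparison is exposed to scaling too. With every array scaled to 1 SD, 529 genes were called in siSCR, and 456 of the 544 calls were kept. Leaving out any 1 of the 6 arrays moved the number of called genes by over 1.5 times, to 155, 160 and 150 without DMSO array 1, 2 or 3 and to 309, 175 and 203 without ATRA array 1, 2 or 3. Among the 82 genes called and named here by rule or as list members, all 82 kept their direction in every one of these fits and 42 to 57 kept their call.

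The label was checked against marker genes. The mean of 11 core pluripotency genes was 11.41 to 11.48 with DMSO and 11.17 to 11.26 with ATRA. The mean of 19 fibroblast and feeder markers was 7.61 to 7.7 with DMSO and 7.69 to 7.76 with ATRA. The mean of 22 neural progenitor markers was 8.1 to 8.13 and 8.14 to 8.18. Arrays have no 0 level, so markers near background cannot be told from absent ones. Since RNA came from whole embryoid bodies, fewer cells of a type and less RNA per cell cannot be told apart in any result below.

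Sequence was examined in the promoters of genes that rose together, because retinoic acid receptors are known to bind direct repeats of a hexamer with 5 bases between. The hexamers searched, in any pair and on both strands, were AGGTCA (the consensus of the receptor's site), its form GGGTCA, the variant of the consensus written AGTTCA, and the corresponding GGTTCA. Of 32851 mouse promoters in the RefSeq table (GRCm38.p6, 250 bases before to 50 after each start), 32 held such a repeat (0.0974%), and so did 11 of the 15563 tested genes with a promoter (0.0707%). Among the 189 genes called higher that had a promoter in the table there were 2, Cyp26a1 and Rarb, and among the 246 called lower there were 0. Both are shown over the 250 bases before the gene's start, 5′ to 3′ on the gene's strand, with the hexamers of the repeat in capitals. Cyp26a1 lies at chr19:37697558-37697807 on the plus strand, and its repeat (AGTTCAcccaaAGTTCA) reads on the opposite strand, from base -32 to base -16. Rarb lies at chr14:16575477-16575726 on the minus strand, and its repeat (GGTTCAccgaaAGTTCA) reads on the gene's strand, from base -53 to base -37.
Cyp26a1: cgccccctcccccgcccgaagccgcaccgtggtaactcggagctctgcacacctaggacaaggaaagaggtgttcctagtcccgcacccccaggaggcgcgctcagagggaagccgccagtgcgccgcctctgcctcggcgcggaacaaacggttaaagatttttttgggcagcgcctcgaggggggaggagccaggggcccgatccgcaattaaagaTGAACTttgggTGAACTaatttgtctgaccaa
Rarb: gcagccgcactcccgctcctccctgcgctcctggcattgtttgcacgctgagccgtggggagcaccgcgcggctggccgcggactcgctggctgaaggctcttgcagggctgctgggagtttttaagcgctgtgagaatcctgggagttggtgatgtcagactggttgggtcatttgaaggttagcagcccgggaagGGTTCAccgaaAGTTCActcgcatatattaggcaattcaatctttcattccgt
The other 9 tested genes with a repeat of this kind, among them Ppbp, Prokr2 and Hbb-y, were not called and had changes between -0.28 and 0.55. Repeats with 2 or 1 bases between were found in 14 (0.09%) and 37 (0.238%) of the 15563 tested genes with a promoter. None was in the 189 genes called higher, and 1 gene of the 246 called lower held a repeat with 1 base between (0.407%). A match is only a match of letters within this window and does not show binding.

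The strongest rise was in Stra8, the retinoic acid induced gatekeeper of meiosis. Its level was 6.55, 6.83 and 6.52 with DMSO and 10.69, 10.63 and 10.78 with ATRA. All 3 ATRA arrays lay far above the DMSO arrays, a rise of 4.07 ± 0.11 (16.8-fold, adjusted p = 8.47e-06). The DMSO level was below the medians of the DMSO arrays (7.57 to 7.61) and could be near background. No detection calls were used here, so the true fold may be larger. Of 12 measured germline and meiosis genes Stra8 alone was called. At an unadjusted p under 0.05 in limma, which 20.9% of all genes passed, 4 of the 12 were higher and 0 lower. Dazl, an RNA-binding protein of germ cells, was at 0.50 ± 0.14 (adjusted p = 0.114) and Meioc, a meiosis regulator, at 0.71 ± 0.17 (adjusted p = 0.0737), and in both the arrays of the groups did not overlap. The synaptonemal complex genes Sycp1 and Sycp3 were at 0.05 and -0.07.

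Of 24 measured genes that handle retinoids, 5 were called higher and 0 lower, where 1.25% and 1.47% of all genes were. The list's median was 0.13 against 0.03 over all genes. Dhrs3, which reduces retinaldehyde back to retinol, was at 8.95, 9.06 and 8.98 with DMSO and 11.35, 11.33 and 11.48 with ATRA. It rose by 2.39 ± 0.088 (5.24-fold, adjusted p = 5.12e-05), with tight and well separated groups. Cyp26a1, the main hydroxylase that breaks down retinoic acid, was at 9.80, 9.60 and 10.01 with DMSO and 11.88, 11.59 and 11.66 with ATRA. This was a rise of 1.90 ± 0.13 (3.74-fold, adjusted p = 0.00155), with all ATRA arrays above all DMSO arrays. Stra6, the membrane receptor for retinol-binding protein, was at 8.46, 8.24 and 8.19 with DMSO and 9.81, 9.56 and 9.77 with ATRA. It rose by 1.41 ± 0.11 (2.66-fold, adjusted p = 0.00207), every ATRA array above every DMSO array.

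Crabp2, which carries retinoic acid to its receptors, was at 7.87, 7.99 and 8.00 with DMSO and 8.80, 8.99 and 8.97 with ATRA, a rise of 0.97 ± 0.093 (adjusted p = 0.00331). Cyp26b1, the second hydroxylase, rose by 0.57 ± 0.10 (adjusted p = 0.0315), from 7.79 to 8.06 with DMSO to 8.39 to 8.58 with ATRA. The third, Cyp26c1, was at 0.21 and not called. On the synthesis side no gene was called: the retinol dehydrogenase Rdh10 was at -0.22 ± 0.099, the retinaldehyde dehydrogenase Aldh1a2 at -0.20 ± 0.18, Aldh1a1 at 0.26 and Aldh1a3 at 0.08. The storage enzyme Lrat was at 0.19 ± 0.10 and the second cellular binding protein, Crabp1, at 0.13 ± 0.19, and neither was called. So the 5 called genes act in uptake, transport and removal, and the measured enzymes that make retinoic acid were not called. The calls of Dhrs3, Cyp26a1, Stra6 and Crabp2 held without any 1 array, while that of Cyp26b1 was lost without each (adjusted p up to 0.11).

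Of the 6 receptor genes, Rarb and Rarg were called higher. Rarb was at 6.88, 6.69 and 6.78 with DMSO and 7.89, 7.86 and 7.99 with ATRA. It rose by 1.13 ± 0.091 (2.19-fold, adjusted p = 0.00207), and its groups were narrow and well apart. Rarg was at 10.45, 10.69 and 10.50 with DMSO and 11.07, 11.09 and 11.14 with ATRA, a rise of 0.55 ± 0.095 (adjusted p = 0.027) that was called in only 1 of the 6 fits that leave out an array (adjusted p up to 0.11). Rara was at 0.35 ± 0.10 (adjusted p = 0.108) with the groups apart, and the partners Rxra, Rxrb and Rxrg were at -0.13, 0.18 and 0.17. Among 7 measured coregulators of nuclear receptors 1 was called, Nrip1 (RIP140), which binds ligand-bound receptors and restrains them. Its level was 9.15, 8.87 and 9.07 with DMSO and 10.14, 10.23 and 10.26 with ATRA, a rise of 1.18 ± 0.10 (adjusted p = 0.00243) with no overlap. The coactivators Ncoa1, Ncoa3 and Ep300 were at -0.27, -0.25 and -0.28 and were not called.

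**Figure D1:**
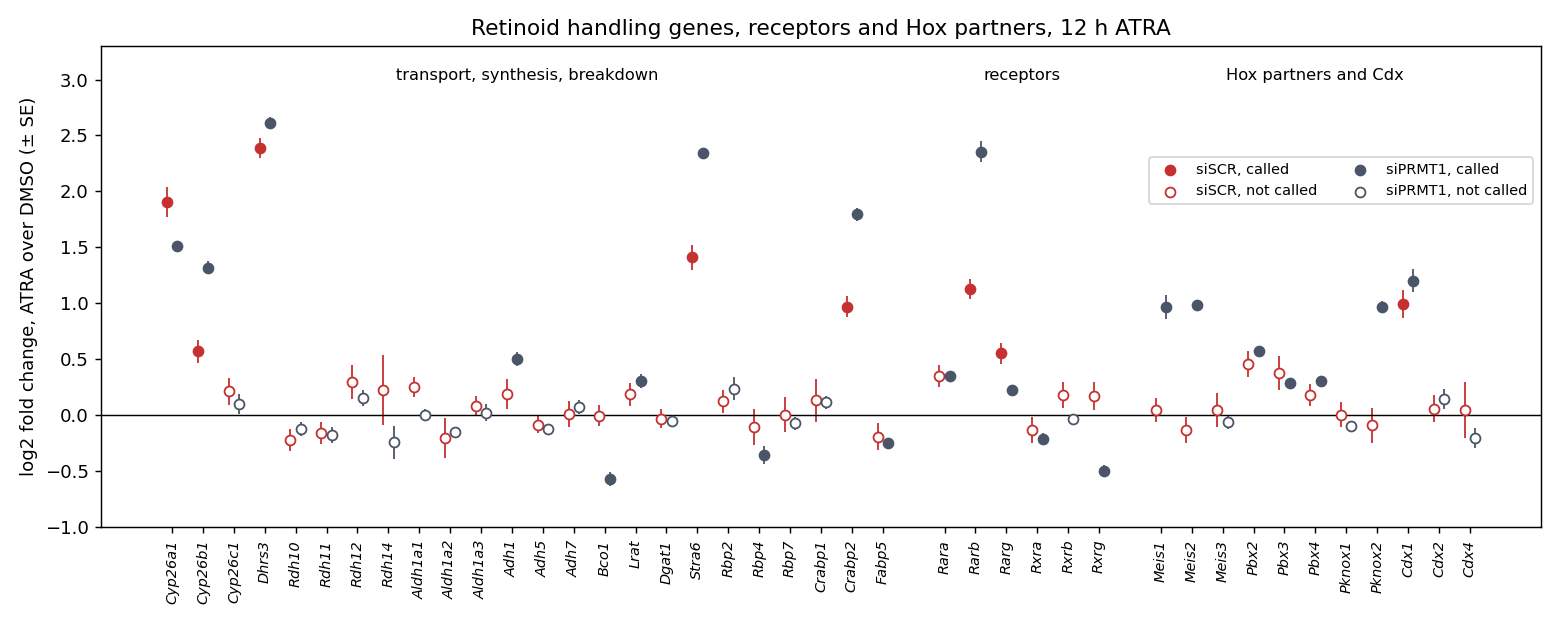
Log2 fold change of ATRA over DMSO with its standard error (vertical axis) for genes of retinoid handling, retinoid receptors, and Hox partners with Cdx genes (horizontal axis), in siSCR (red) and siPRMT1 (grey), n = 3 arrays per group. Filled points were called and open points were not. Dhrs3, Cyp26a1 and Stra6 stand highest in siSCR, and the genes of retinoic acid synthesis lie near 0.

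The Hox genes encode the transcription factors of body axis identity, and in their clusters the low-numbered genes are known to respond first to retinoic acid. Of 37 measured Hox genes 7 were called higher and 0 lower, where 1.25% and 1.47% of all genes were. Of the 14 in paralogue groups 1 to 5, 6 were called (median 0.56), and of the 23 in groups 6 to 13, 1 was called (median 0.16). By cluster, 3 of 10 HoxA and 4 of 9 HoxB genes were called, against 0 of 9 HoxC and 0 of 9 HoxD genes, whose changes ran from -0.13 to 0.27 and from -0.09 to 0.47. At an unadjusted p under 0.05, which 20.9% of all genes passed, there were 5 HoxA, 7 HoxB, 0 HoxC and 4 HoxD genes, all higher. Whether the clusters differ was not tested.

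Hoxa5 moved most. Its level was 7.58, 7.99 and 7.63 with DMSO and 9.96, 10.16 and 9.73 with ATRA, a rise of 2.21 ± 0.15 (4.63-fold, adjusted p = 0.00155) that was wide of the spread in either group. Hoxa3 was at 6.38, 6.14 and 6.29 with DMSO and 7.03, 7.30 and 7.22 with ATRA, and rose by 0.91 ± 0.11 (adjusted p = 0.00737). In HoxA, Hoxa4 lies between them and rose by 0.81 ± 0.12 (adjusted p = 0.0176), while Hoxa2 was at 0.60 ± 0.15 (adjusted p = 0.0823) with the groups apart. The next gene after Hoxa5, Hoxa6, was at 0.08 ± 0.093 with its groups overlapping, and Hoxa7 and Hoxa9 were at 0.16 and 0.18.

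In HoxB the called rises were smaller. Hoxb5 was at 6.94, 7.16 and 7.30 with DMSO and 8.04, 8.07 and 7.89 with ATRA, a rise of 0.87 ± 0.12 (adjusted p = 0.0105). Hoxb4 rose by 0.74 ± 0.10 (adjusted p = 0.0117). Hoxb1, the direct retinoic acid target that specifies a hindbrain segment, was at 8.14, 8.06 and 8.16 with DMSO and 8.65, 8.56 and 8.83 with ATRA. It rose by 0.56 ± 0.099 (adjusted p = 0.0295), a small change, though the groups were apart. Hoxb2, at 0.56 ± 0.12 (adjusted p = 0.0579), and Hoxb6, at 0.48 ± 0.13 (adjusted p = 0.0923), were not called. Hoxb13, from the far end of the cluster, rose by 0.62 ± 0.12 (adjusted p = 0.0426), from a level near 6.7 to 6.9. The calls of Hoxa5 and Hoxa3 held without any 1 array. Those of Hoxb5, Hoxb4 and Hoxa4 held in 4, 3 and 1 of the 6 fits, and those of Hoxb1 and Hoxb13 in 0 (adjusted p up to 0.12 and 0.14).

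**Figure D2:**
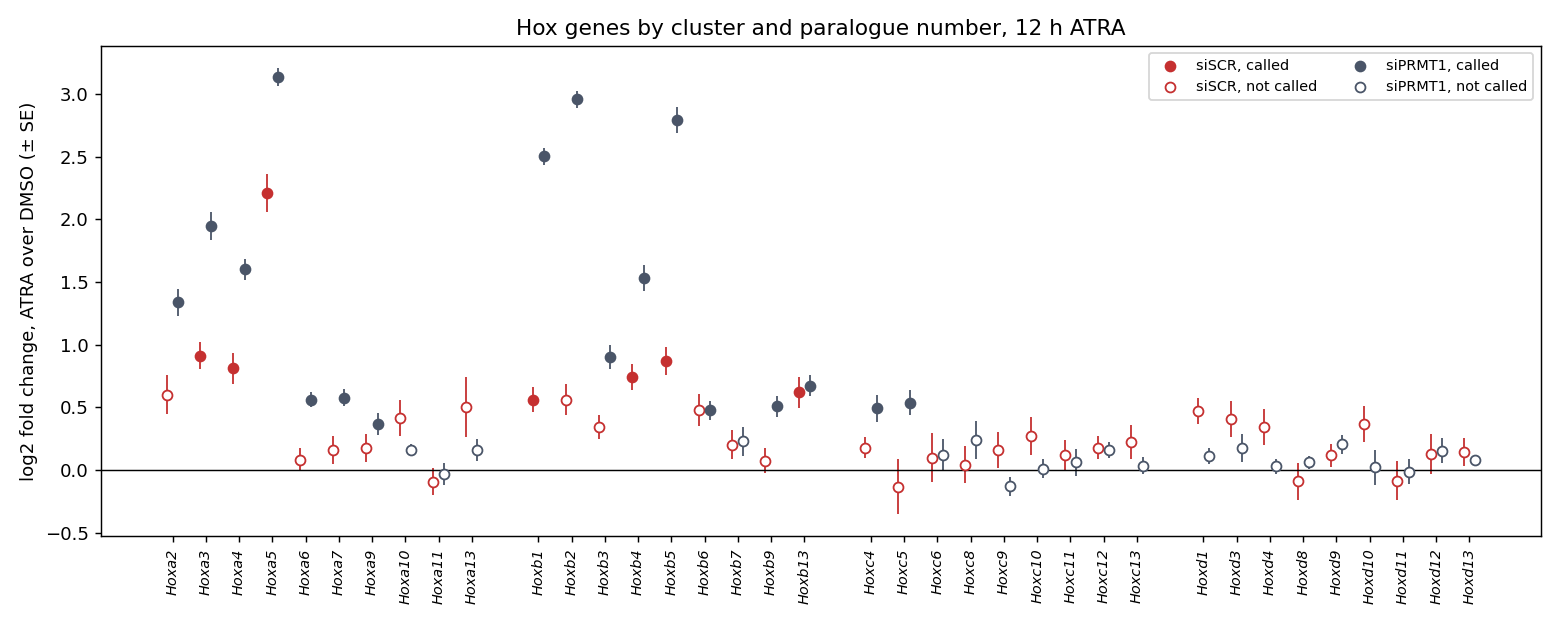
Log2 fold change of ATRA over DMSO with its standard error (vertical axis) for the measured Hox genes in cluster order (horizontal axis), in siSCR (red) and siPRMT1 (grey), n = 3 arrays per group. Filled points were called. In siSCR Hoxa5 stands at 2.21, the other called genes at 0.56 to 0.91, and most genes of paralogue groups 6 to 13 lie near 0.

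Among 11 measured partners and upstream regulators of Hox genes only Cdx1 was called, a caudal homeobox gene that responds to retinoic acid. It was at 8.00, 8.10 and 7.89 with DMSO and 8.82, 8.91 and 9.23 with ATRA, a rise of 0.99 ± 0.12 (adjusted p = 0.00895) with no overlap. Its relatives Cdx2 and Cdx4 were at 0.06 and 0.04, and the Hox partners Meis1 and Meis2 were at 0.05 ± 0.11 and -0.13 ± 0.12. Of 21 other genes known from retinoic acid responses, Stra8 and Nr6a1 were called higher and Plat lower. Nr6a1 (GCNF), the orphan receptor that silences Pou5f1, rose by 0.76 ± 0.094 (adjusted p = 0.00875), from 9.51 to 9.73 with DMSO to 10.29 to 10.41 with ATRA. Plat, the tissue plasminogen activator that rises when stem cells form parietal endoderm, fell by 0.56 on the log2 scale (SE 0.11, adjusted p = 0.0361), a call held in 1 of the 6 fits without an array. The retinoid-responsive receptors Nr2f1 and Nr2f2 (COUP-TF) were at 0.38 ± 0.16 and -0.18 ± 0.12, and the transglutaminase Tgm2 at -0.03 ± 0.12.

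The genes with the largest rises outside these families had varied roles. Aqp3, a channel for water and glycerol, was at 9.69, 9.70 and 9.29 with DMSO and 12.55, 12.49 and 12.47 with ATRA, a rise of 2.94 ± 0.13 (7.69-fold, adjusted p = 0.0001). It was the second largest of the 15 rises named. Acp5, tartrate-resistant acid phosphatase, rose by 1.60 ± 0.088 and Dusp9, a phosphatase of MAP kinases, by 1.54 ± 0.082 (adjusted p = 0.000435 for both). Gfra1, the co-receptor for GDNF, rose by 1.38 ± 0.10, and the mitochondrial phosphatase gene Pptc7 by 1.34 ± 0.096 (adjusted p = 0.00157 for both). Greb1l, a relative of the oestrogen-responsive Greb1, rose by 1.40 ± 0.11, and its second probe set by 0.99. The others were Gca, a calcium-binding protein (1.48 ± 0.12), Ankrd44, a regulatory subunit of protein phosphatase 6 (1.47 ± 0.15), the muscle actinin Actn3 (1.46 ± 0.15) and the adhesion protein Igsf21 (1.41 ± 0.16). Genes were named only where the arrays of the groups did not overlap, so that separation is fixed by the choice. The calls of all 15 held without any 1 array.

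Of the falls, that of Otx2 was the deepest. Otx2 encodes the homeobox factor of the epiblast and the anterior head. It was at 10.14, 10.21 and 10.14 with DMSO and 8.28, 7.61 and 8.01 with ATRA, and fell by 2.20 on the log2 scale (SE 0.16, 4.59-fold, adjusted p = 0.00157). The DMSO arrays were almost equal, and the ATRA arrays spread more widely but stayed far below them. It was the only one of 15 measured anterior factors that was called. Hesx1, Six3 and Lhx2 were at -0.02, 0.17 and 0.13, and Pax6 was at 0.45 ± 0.14 (adjusted p = 0.125).

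Dnmt3l, the catalytically inactive partner of the de novo DNA methyltransferases, was at 11.45, 11.43 and 11.49 with DMSO and 10.44, 10.17 and 10.26 with ATRA. It fell by 1.17 on the log2 scale (SE 0.096, 2.25-fold, adjusted p = 0.00207). Dnmt3b, one of these methyltransferases, fell by 0.56 (SE 0.082, adjusted p = 0.0156), from 10.58 to 10.70 with DMSO to 10.05 to 10.08 with ATRA. These 2 were the called genes of 8 for DNA methylation. Dnmt1 was at -0.02, Dnmt3a at 0.24 and Tet1 at -0.24, and none of them was called. The call of Dnmt3l held without any 1 array, and that of Dnmt3b in 1 of 6 fits (adjusted p up to 0.075).

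The other large falls included Ddx58, which encodes the viral RNA sensor RIG-I (-1.15 ± 0.11), and Socs2, a suppressor of cytokine signalling (-1.14 ± 0.095 in its brighter probe set and -0.51 in the other). Of 18 measured interferon response genes Ddx58 alone was called, while Ifit1, Irf7 and Mx1 were at 0.12, 0.15 and 0.09. Among the carriers and enzymes were Slc27a2, an acyl-CoA synthetase of very long fatty acids (-1.33 ± 0.12), Slc6a15, a carrier of neutral amino acids (-1.17 ± 0.10), and Slco4c1, an organic anion carrier (-1.07 ± 0.12). The zinc finger gene Zfp459 fell by 1.41 (SE 0.11), the noncoding RNA Platr8, known from pluripotent cells, by 1.36 (SE 0.15), and Lrrc34 by 1.21 (SE 0.089). Chrna9, a nicotinic receptor subunit, and Dnajc6, the uncoating cofactor auxilin, each fell by 1.00 (SE 0.12 and 0.088). Casq2, the cardiac calsequestrin (-1.24 ± 0.19), the annexin Anxa1 (-1.07 ± 0.17) and Zfp931 (-1.04 ± 0.18) scattered more among the ATRA arrays. Their calls held in 2, 1 and 2 of the 6 fits without an array (adjusted p up to 0.07, 0.094 and 0.11), and those of the other 12 falls in all 6.

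**Figure D3:**
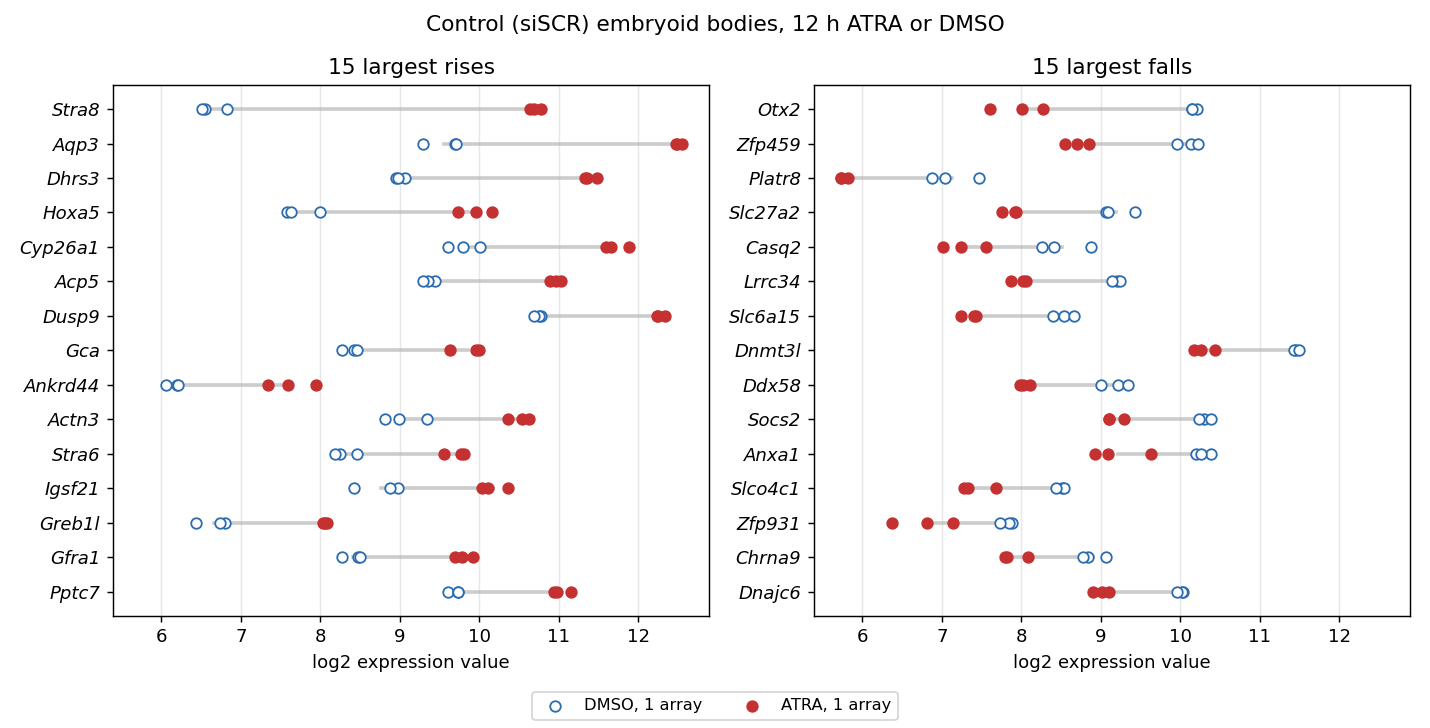
Log2 expression value (horizontal axis) of the 15 genes with the largest called rises (left) and the 15 with the largest called falls (right) in siSCR embryoid bodies. Open blue points are the 3 DMSO arrays, filled red points the 3 ATRA arrays, and the grey line joins the group means. Stra8 shows the widest gap, from 6.52 to 6.83 with DMSO to 10.63 to 10.78 with ATRA, and the groups do not overlap in any gene because genes were chosen that way.

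The central pluripotency factors were not called. Pou5f1 (Oct4), the central factor of the pluripotent state, was at 13.10, 13.16 and 13.15 with DMSO and 13.14, 13.06 and 13.07 with ATRA, a change of -0.05 ± 0.081 with overlapping groups. Nanog was at -0.01 ± 0.079, also with overlap. Sox2 was at -0.32 ± 0.082 (adjusted p = 0.088), its ATRA arrays all below its DMSO arrays, and in limma 0 of 11 measured core genes were called (median -0.32, against 0.03 over all genes). At an unadjusted p under 0.05, 5 of the 11 were lower and 0 higher, where 20.9% of all genes passed that threshold in either direction. With every array scaled to 1 SD, Pou5f1, Nanog and Sox2 were at 0.10, 0.13 and -0.20, so these values depend on the scaling.

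Of 18 measured genes of naive pluripotency 4 were called lower and 1 higher (median -0.13), where 1.47% and 1.25% of all genes were. Nr5a2, a nuclear receptor that activates Pou5f1, was at 10.24, 10.35 and 10.21 with DMSO and 9.62, 9.67 and 9.54 with ATRA, and fell by 0.66 (SE 0.087, adjusted p = 0.0107). Zfp42 (Rex1), a marker of naive cells, fell by 0.52 (SE 0.084, adjusted p = 0.022), the factor Klf5 by 0.45 (SE 0.086, adjusted p = 0.0372) and the orphan receptor Nr0b1 (Dax1) by 0.41 (SE 0.080, adjusted p = 0.0394). Dppa2, a chromatin factor of pluripotent cells, rose by 0.55 ± 0.082 (adjusted p = 0.017), and its second probe set was at 0.39. Esrrb, Klf2 and Klf4 were at -0.15, 0.06 and -0.21. These 5 calls were among the less firm: they held in 4 (Nr5a2), 2 (Dppa2), 1 (Zfp42), 0 (Klf5) and 0 (Nr0b1) of the 6 fits without an array, with adjusted p up to 0.14. They also depended on the scaling. With every array scaled to 1 SD, limma still called Nr5a2 (adjusted p = 0.0125) and Dppa2 (adjusted p = 0.00858). Zfp42, Klf5 and Nr0b1 lost their calls there (adjusted p = 0.0516, 0.0942 and 0.117). Of 13 primed epiblast genes 3 were called lower, Otx2, Dnmt3b and the Wnt effector Lef1, while Fgf5, the classic marker, was at -0.28 ± 0.12 (adjusted p = 0.257).

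A few signalling genes were called. For the counts of the signalling lists, the share called over all genes was 2.73%. In the Nodal pathway, of 16 measured genes, the secreted antagonist Lefty1 rose and the inhibitory Smad7 fell. Lefty1 was at 10.78, 11.10 and 10.85 with DMSO and 12.14, 12.09 and 12.29 with ATRA, a rise of 1.26 ± 0.11 (2.4-fold, adjusted p = 0.00247) held in all 6 fits without an array. Its neighbour in function Lefty2 was at -0.06 ± 0.092, and Nodal itself at 0.14 ± 0.098, both with overlapping groups. Smad7 fell by 0.51 (SE 0.095, adjusted p = 0.0348), a call held in 0 of the 6 fits.

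In the FGF and ERK pathway 3 of 21 measured genes were called, all lower and all feedback inhibitors. Spry2 was at 12.72, 12.70 and 12.65 with DMSO and 12.03, 12.18 and 12.09 with ATRA, and fell by 0.59 (SE 0.085, adjusted p = 0.0153). Spry4 fell by 0.61 (SE 0.11, adjusted p = 0.0317) and Spred1 by 0.59 (SE 0.12, adjusted p = 0.0472). Dusp4 and Dusp6, the phosphatases that follow ERK activity, were at -0.59 ± 0.15 (adjusted p = 0.0884) and -0.28 ± 0.09 (adjusted p = 0.136), and the ligands Fgf4 and Fgf8 at -0.13 and 0.36. Feedback genes did not all go down: Spred2 was at 0.34 and Spry1 at 0.07 to 0.26 in the fits without 1 array. Il17rd was at -0.33. None of these was called. Dusp9, outside this list, was among the largest rises. At an unadjusted p under 0.05, which 20.9% of all genes passed, 5 of the 21 were higher and 9 lower. In the BMP pathway 3 of 17 were called, all lower: the ligand Bmp4 by 0.55 (SE 0.080, adjusted p = 0.0157), the antagonist Fst (follistatin) by 0.71 (SE 0.092, adjusted p = 0.00945) and Id4, an inhibitor of helix-loop-helix factors, by 0.81 (SE 0.11, adjusted p = 0.00949). The other BMP responders Id1, Id2 and Id3 were at 0.26, 0.03 and -0.04. Of these 6 calls, those of Id4 and Fst held in 4 of the 6 fits without an array, that of Spry2 in 2, those of Spry4 and Bmp4 in 1, and that of Spred1 in 0 (adjusted p up to 0.15).

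Of 19 measured Wnt genes, the ligand Wnt3a rose by 0.48 ± 0.084 (adjusted p = 0.0292) and Lef1 fell by 0.51 (SE 0.097, adjusted p = 0.0367), and both calls held in 0 of the 6 fits. The pathway reporter Axin2 was at -0.19 and not called. Of 18 Notch and hedgehog genes 1 was called, Hhip, the decoy receptor of hedgehog ligands, which rose by 1.05 ± 0.16 (adjusted p = 0.017), from 7.20 to 7.77 with DMSO to 8.33 to 8.58 with ATRA. Its call held in 2 of the 6 fits (adjusted p up to 0.071). The hedgehog reporters Ptch1 and Gli1 were at -0.13 and -0.17.

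Of 125 markers of cell types an embryoid body or its culture can hold, from 8 lists, 11 were called (8.8%, against 2.73% of all genes), 4 higher and 7 lower. Of 22 neural progenitor genes 0 were called in limma (4 at an unadjusted p under 0.05, which 20.9% of all genes passed), with changes from -0.32 to 0.33. Of 19 genes of primitive streak and mesoderm, Isl1, a factor of heart and motor neuron progenitors, rose by 0.48 ± 0.096 (adjusted p = 0.0461). Of 15 endoderm factors Gata6 rose by 0.50 ± 0.092 (adjusted p = 0.0348), while Hnf4a fell by 0.53 (SE 0.097, adjusted p = 0.0331) and the chemokine receptor Cxcr4 by 0.77 (SE 0.13, adjusted p = 0.0267). Gata4 and Sox17, which often accompany Gata6, were at 0.02 ± 0.11 and -0.32 ± 0.11 and were not called. Dab2, an endocytic adaptor of the endoderm, fell by 0.62 (SE 0.10, adjusted p = 0.0229) as the 1 call of 15 visceral endoderm genes. Its second probe set, far dimmer at a mean of 4.4, was at 0.11. In limma with every array scaled to 1 SD the Dab2 call was lost (adjusted p = 0.0527). Of 11 parietal endoderm genes, Plat and Fst fell, and of 11 trophectoderm genes, Ascl2 (-0.55 ± 0.088, adjusted p = 0.0222). All of these calls held in at most 1 of the 6 fits without an array, except that of Fst in 4.

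Pecam1, an adhesion molecule of endothelium that stem cells also carry, was the 1 call of 13 blood and vessel genes. It was at 10.01, 10.12 and 10.08 with DMSO and 10.95, 10.86 and 10.80 with ATRA, a rise of 0.80 ± 0.087 (adjusted p = 0.00529). The endothelial genes Kdr and Cdh5 were at 0.27 and -0.18. Of 19 fibroblast and feeder markers, Pdgfrb, a receptor of mesenchymal cells, rose by 0.96 ± 0.097 (adjusted p = 0.00373) and Timp1 fell by 0.54 (SE 0.098, adjusted p = 0.0323). The collagens Col1a1, Col1a2 and Col3a1 were at 0.11, -0.13 and 0.23 and were not called. The calls of Pecam1 and Pdgfrb held without any 1 array, and that of Timp1 in 0 of 6 fits (adjusted p up to 0.12).

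Of 110 genes in 7 lists of stress, metabolism and proliferation, 4 were called (3.64%), a share near the 2.73% of all genes. Of 16 genes of the integrated stress response, 11 of sterol synthesis, 20 and 17 of the cell cycle (G1 and S, then G2 and M), 4 of the 2-cell-like state and 10 reference genes, 0 were called in limma. At an unadjusted p under 0.05 there were 3, 1, 4, 1, 1 and 3 in the same order, and in the fit of all 24 arrays 5, 2, 6, 7, 1 and 3 were called. Over all genes these shares were 20.9% and 23.4%. The reference genes ran from -0.42 (B2m) to 0.28 (Gusb), with Actb at -0.03. The immediate early gene Jund, a subunit of AP-1, rose by 0.83 ± 0.092 (adjusted p = 0.00546), held in all 6 fits without an array, as the 1 call of 14, and Junb was at 0.37. Of 12 targets of p53, Sesn1 rose by 0.64 ± 0.096 (adjusted p = 0.0172) and Btg2 fell by 0.52 (SE 0.085, adjusted p = 0.0229), while Mdm2 was at -0.03. Egln3, an oxygen sensor, fell by 0.48 (SE 0.098, adjusted p = 0.0469) as the 1 call of 20 hypoxia and glycolysis genes. Among 9 arginine methyltransferase genes Prmt8, which is best known from brain, rose by 0.94 ± 0.11 (adjusted p = 0.00627), held in all 6 fits, and Prmt1 was at 0.04 ± 0.080.

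**Figure D4:**
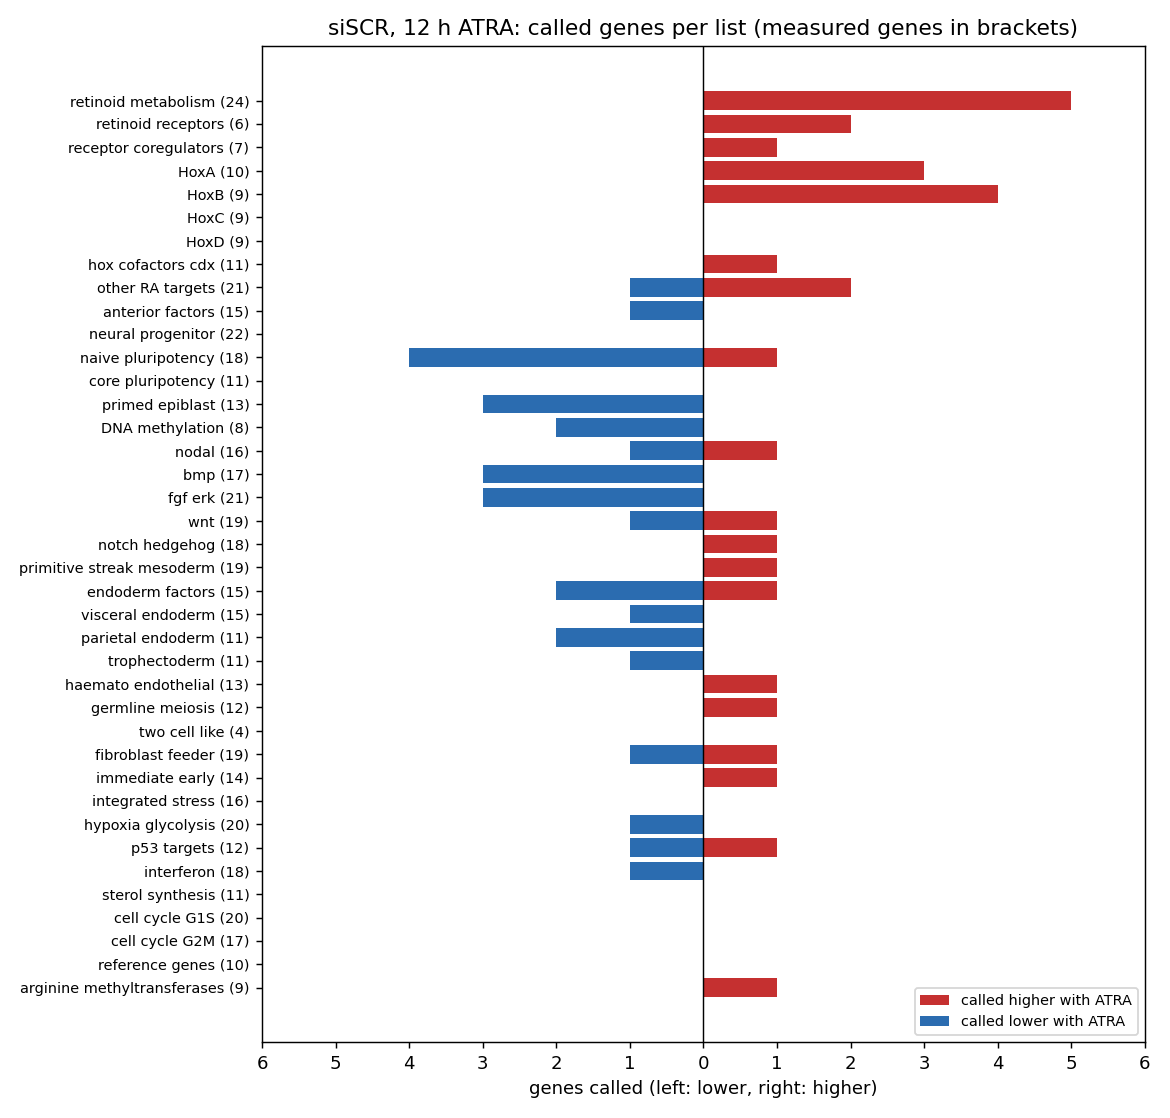
Number of genes called higher (red, to the right) or lower (blue, to the left) with ATRA in siSCR embryoid bodies for each of 39 gene lists (vertical axis), with the number of measured genes in brackets. Retinoid metabolism with 5 of 24 and HoxB with 4 of 9 reach furthest to the right, and naive pluripotency with 4 of 18 reaches furthest to the left.

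The same treatment of siPRMT1 embryoid bodies, fitted on its own 6 arrays, called 2995 genes (15.0%), 1516 higher (7.60%) and 1479 lower (7.42%). The larger count came with a smaller median standard error, 0.0643 against 0.114, so the counts do not show a larger response. Of the 544 genes called in siSCR, 407 were called the same way in siPRMT1 (74.8% of the siSCR calls and 13.6% of the siPRMT1 calls), and 1 was called the opposite way. Of the 61 genes called at 2-fold or more, 59 were called the same way in siPRMT1. Stra8, Aqp3, Dhrs3 and Otx2 changed by 4.19 ± 0.06, 2.67 ± 0.046, 2.61 ± 0.049 and -2.69 ± 0.075 there. Their differences between the lines, siSCR minus siPRMT1, were -0.12, 0.28, -0.22 and 0.49 and were not called (adjusted p from 0.308 to 0.756).

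The difference between the lines was tested on the 12 arrays and called for 135 genes (0.677%), with the siSCR response higher for 68 (0.341%) and lower for 67 (0.336%). It was called for 38 of the genes called in siSCR, for 85 called in siPRMT1 only and for 12 called in neither. Hox genes and retinoid genes were among those whose rise was smaller in siSCR. Hoxb1 rose by 0.56 in siSCR and by 2.50 ± 0.069 in siPRMT1, a difference of -1.94 ± 0.12 (adjusted p = 1.34e-05). Hoxb5 rose by 0.87 and 2.79 ± 0.11, a difference of -1.92 ± 0.16 (adjusted p = 0.000214). The 7 Hox genes with a called difference were all among the 14 of paralogue groups 1 to 5, and in all 7 the siSCR response was the lower. With every array scaled to 1 SD the calls of Hoxa5 (-0.67, adjusted p = 0.165), Hoxa4 (-0.69, adjusted p = 0.0937) and Hoxb4 (-0.72, adjusted p = 0.0664) were lost. These 3 were called in 8, 7 and 8 of the 21 settings run.

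Rarb differed by -1.22 ± 0.13 (adjusted p = 0.00116), Stra6 by -0.93 ± 0.12 and Crabp2 by -0.82 ± 0.11 (adjusted p = 0.00427 for both). Csn3, a milk casein gene, showed the widest gap among genes called in siSCR: it was at 5.63, 5.56 and 5.68 with DMSO and 6.64, 6.48 and 6.06 with ATRA in siSCR, a rise of 0.77 ± 0.15, against 3.28 ± 0.079 in siPRMT1 (difference -2.51 ± 0.18, adjusted p = 5.76e-05). The DMSO level of Csn3 in siSCR was below the medians of those arrays (7.57 to 7.61) and could be near background. Its siSCR call in limma held in 1 of the 6 fits without an array (adjusted p up to 0.13). The peripheral myelin gene Pmp22, the neural factor Olig3 and the protease gene Tll1 differed by -1.19, -1.08 and -1.07. In the other direction, Lef1 fell by 0.51 in siSCR and changed by -2.60 in siPRMT1, a difference of 2.09 ± 0.11 (adjusted p = 4.94e-06). Its DMSO level was 7.83 to 7.99 in siSCR, against a mean of 10.32 in siPRMT1. Acp5, Cotl1 (an actin-binding protein), Vsir (an immune checkpoint receptor), Fabp12 and Dnmt3b had differences of 0.55, 0.61, 0.71, 0.54 and 0.52. The siSCR calls of Olig3, Vsir and Fabp12 held in 0 of the 6 fits without an array. Those of Pmp22 and Cotl1 held in 3, and those of Tll1 and Acp5 in all 6. As the siSCR arrays stand apart from the siPRMT1 arrays in spread, the differences between the lines cannot be told apart from that gap. With every array scaled to 1 SD, the differences of Lef1, Hoxb1, Hoxb5, Rarb and Csn3 were 1.94, -1.84, -1.81, -1.11 and -2.44 and were called, while that of Fabp12 lost its call (0.52, adjusted p = 0.06).

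**Figure D5:**
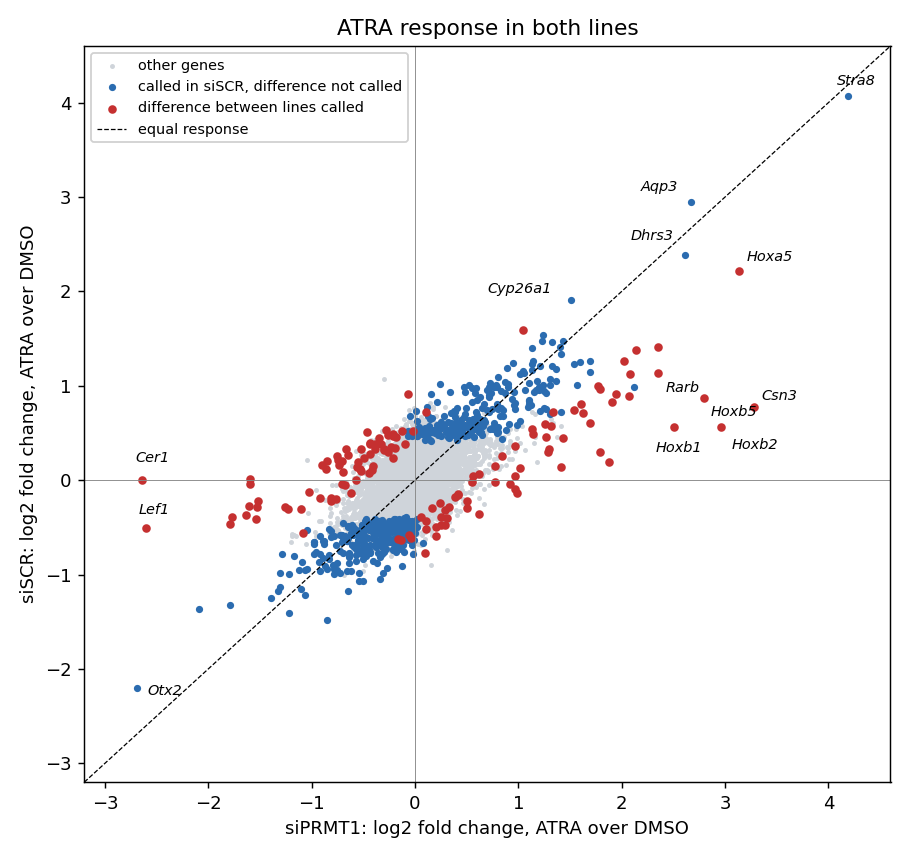
Log2 fold change of ATRA over DMSO in siSCR (vertical axis) against siPRMT1 (horizontal axis) for the 19938 genes, with genes called in siSCR in blue, genes with a called difference between the lines in red, and the dashed line where both responses are equal. Stra8, Aqp3, Dhrs3 and Otx2 lie near the dashed line, and Hoxb1, Hoxb5, Csn3 and Lef1 lie away from it.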

How the data were processed

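Total RNA of 24 samples (300 ng each, RNeasy columns, biotinylated cDNA, per the labels' protocols) was hybridised to Affymetrix whole-transcript arrays. The deposited table holds log2 values per probe set, where the base was read from their range. The authors' summarising and normalization are not given in the sources used here. Of 35556 probe sets 21789 named 1 gene in the platform annotation, 1621 several and 12146 none. For the 999 genes with several sets the brightest was kept. Responses were fitted with limma 3.58.1 in R 4.3.3 (lmFit, eBayes) on the 6 arrays compared, since groups scattered unequally, and the difference between lines on 12. P-values were adjusted by Benjamini-Hochberg over all 19938 genes. Named were the 15 largest called rises and falls with arrays that did not overlap, up to 8 genes each way for the difference, and members of 39 lists. Predicted genes, clones, small RNAs and large receptor families were passed over. The members and lists were chosen with earlier results of these data known. Promoters were searched by letters in the RefSeq table. In data simulated for the response over 19938 genes, 4.2% of calls were unchanged genes and 0 had the wrong sign. The alternatives tried are given in the closing section.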

Additional observations from a re-analysis of the deposited data

Results flagged for a closer look

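The response of 38 named or listed genes differed between siSCR and siPRMT1 by the interaction test in limma (adjusted p under 0.05, 12 arrays). Values are the siSCR response minus the siPRMT1 response in log2 units, and the gap in spread between the siSCR and siPRMT1 arrays cannot be told apart from the line. A higher siSCR response can therefore be a smaller fall, and a lower one a smaller rise. All 38 kept their sign in every setting run, and 13 were called in every one. With every array scaled to 1 SD, 6 lost their call: Hoxa5, Hoxa4, Hoxb4, Bco1, Msi1 and Fabp12 (adjusted p from 0.06 to 0.165). Of 21 settings, Bco1 was called in 4, Hoxa4 in 7, Hoxa5, Hoxb4 and Dnmt3a in 8 and Cotl1 in 9, and Fabp12 in 7 of 20.

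Among Hox genes and their partners the siSCR response was lower for Hoxb2 (-2.40), Hoxb1 (-1.94), Hoxb5 (-1.92), Hoxa3 (-1.03), Hoxa5 (-0.93), Hoxa4 (-0.79), Hoxb4 (-0.79), Meis2 (-1.12), Pknox2 (-1.06) and Meis1 (-0.92). Among retinoid genes it was lower for Rarb (-1.22), Stra6 (-0.93), Crabp2 (-0.82) and Cyp26b1 (-0.75), and higher for Bco1, which cleaves beta-carotene (0.57). It was also lower for Csn3 (-2.51), Pmp22 (-1.19), Olig3 (-1.08), Tll1 (-1.07), Gfra1 (-0.76) and the RNA-binding protein gene Msi1 (-0.59).

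Among genes of the epiblast and of DNA methylation the siSCR response was higher for Lef1 (2.09), Fgf5 (1.33), Foxd3 (1.33), Grhl2 (1.13), Pou3f1 (0.64), Dnmt3b (0.52) and Dnmt3a (0.45). Of these, Lef1, Fgf5, Foxd3 and Grhl2 had negative changes that were smaller in siSCR. They were -0.51, -0.28, -0.46 and -0.41 in siSCR and -2.60, -1.60, -1.79 and -1.54 in siPRMT1. In siSCR those of Fgf5, Foxd3 and Grhl2 were not called. Dnmt3b, which was called lower in siSCR, also fell less there. With DMSO the mean of 13 primed epiblast genes was 8.63 to 8.77 in siSCR and 9.98 to 10.02 in siPRMT1. Whether this bears on the differences was not tested. The siSCR response was also higher for the secreted Nodal and Wnt antagonist Cer1 (2.64), the growth factor Fgf15 (1.30), the homeobox gene Lhx1 (1.27), the visceral endoderm gene Amn (0.73), the blood factor Gata1 (0.70) and the p53 target Pmaip1 (0.59). The same held for Vsir (0.71), Cotl1 (0.61), Acp5 (0.55) and Fabp12 (0.54). Cer1 was at 7.04, 6.50 and 6.91 with DMSO and 7.03, 6.33 and 7.09 with ATRA in siSCR, groups that overlap, and fell by 2.64 in siPRMT1.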

How the results depend on the processing

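The number of arrays limits these counts. The 82 called named genes kept their direction under every alternative, except that 3 were left out with the dimmest 25% of genes and so not tested there. The call was kept by 82 in the fit of all 24 arrays, with trend and robust variance and with array weights, by 75 after quantile normalization, 80 after centring, 71 after scaling to 1 SD, and 81 when a gene's sets were averaged. Scaling to 1 SD lost the siSCR calls of Csn3, Olig3, Hoxb13, Zfp42, Klf5, Nr0b1, Smad7, Spred1, Dab2, Egln3 and Isl1. The siSCR count (544; 250 higher, 294 lower) became 4663 (2229 and 2434) with the spread of all 24 arrays, 1131 (492 and 639) without the dimmest 25% of genes, 1903 (622 and 1281) with trend and robust variance, and 61 (47 and 14) at 2-fold. Centring gave 473 lower. Without 1 array it was 150 to 309 (96 to 144 higher, 54 to 165 lower). The siPRMT1 count (2995) became 6782 (3680 and 3102) with array weights, 138 (95 and 43) at 2-fold, and 1684 to 3475 without 1 array (858 to 1853 higher, 826 to 1622 lower). The count of differences (135) became 646 (264 and 382) with 24 arrays, 208 without the dimmest genes (113 lower in siSCR), 348 (138 and 210) with trend and robust variance, 366 (145 and 221) with array weights, 28 (14 and 14) at 2-fold, and 49 to 186 without 1 array (24 to 80 higher, 25 to 111 lower). The 24-array fit shares its spread with tighter groups, and the 2-fold threshold removes small changes by construction; the cause of the other shifts was not tested. With the replicate number as a block, the counts were 145 (94 and 51), 1176 (626 and 550) and 22 (11 and 11), and 41 of the 82 kept their call. The numbers did not pair the arrays: deviations of same-numbered arrays correlated at -0.0577, -0.0698 and -0.0277 in siSCR, and 0 arrays correlated best with their own number.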

Other observations

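Of the genes raised by ATRA, Stra8, Aqp3, Hoxa5 and Rarb were also higher in undifferentiated siSCR cells than in untreated day 4 embryoid bodies. How common this was among the genes called higher, or over all genes, was not counted. Stra8 was at 8.69 ± 0.32 (SD, n = 3) in undifferentiated cells and 6.25 ± 0.17 at day 4, against 6.63 ± 0.17 with DMSO and 10.7 ± 0.074 with ATRA. Aqp3 was at 11.2 ± 0.056, 9.04 ± 0.042, 9.56 ± 0.23 and 12.51 ± 0.042 in the same order, Hoxa5 at 9.15 ± 0.043, 7.66 ± 0.12, 7.74 ± 0.22 and 9.95 ± 0.21, and Rarb at 7.81 ± 0.094, 6.73 ± 0.037, 6.78 ± 0.094 and 7.91 ± 0.071. Cyp26a1 ran the other way before treatment, at 7.56 ± 0.15 in undifferentiated cells, 8.78 ± 0.096 at day 4, 9.81 ± 0.20 with DMSO and 11.71 ± 0.15 with ATRA. Otx2 was at 7.47 ± 0.029 in undifferentiated cells, 10.4 ± 0.13 at day 4, 10.17 ± 0.041 with DMSO and 7.97 ± 0.34 with ATRA. These levels are given as values, with no test, since the untreated arrays stand apart in spread from the DMSO and ATRA arrays of siSCR.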
